A study of Mus musculus with 2 samples.

Results

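Retained-intron transcripts are annotated copies of a gene's RNA in which sequence that is spliced out of the coding transcripts stays in an exon. Of 21848 transcripts with this annotation, 2502 were studied here. They were chosen by level, with a TPM of at least 1 in both hearts in the table whose columns are those that RSEM writes. TPM is a relative abundance per transcript length. Their levels in that table and their IsoPct, the percent of the gene's TPM assigned to the transcript, therefore belong to the choice and are given as a description without a test. The 2502 transcripts are 11.5% of the annotated retained-intron transcripts, against 17.1% of all 141767 annotated transcripts past the same minimum, and they come from 1796 genes.

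The study measured total RNA from the heart of 2 female mice of strain B6CASTF1/J, labelled as F1 animals of the B6Cast cross, at 10 days of age, with 1 library per animal made from 300 ng of RNA. The labels give no treatment and no further group, so the only comparison is that of the 2 animals, called replicate 1 and replicate 2 here, which stand under 1 donor record. The parental alleles were not separated. Expected counts over annotated transcripts came to 40181177 in replicate 1 and 39617039 in replicate 2. Markers of heart muscle were abundant in both libraries, with a gene TPM of 8417 and 9608 for the myosin heavy chain Myh6 and 311.8 and 349.2 for the calcium release channel Ryr2. Markers of other tissue differed between the hearts. The brown fat gene Ucp1 stood at 44.5 and 6.85, and the haemoglobin gene Hbb-bs at 1777 and 4557.

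An intron is removed when the spliceosome joins its 5′ splice site, usually beginning with GT, to its 3′ splice site, usually ending in AG after a run of pyrimidines. RNA that keeps an intron can be held in the nucleus until it is spliced, can be degraded by nonsense-mediated decay when the intron brings in an early stop codon, or can be exported. Genes of splicing factors are known for introns kept in this way as part of their own regulation. Total RNA also holds transcripts that are still being made and spliced, and a transcript table does not tell these from a stable product.

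The annotated structures fall into classes by the way they hold intron. Introns were those of the coding transcripts, or of the other transcripts not typed as retained intron in genes without a coding one. A whole intron lay inside an exon in 640 members (25.6%, against 30.4% of all annotated retained-intron transcripts). Another 799 (31.9%, against 33.5%) ended within an intron, 834 (33.3%, against 24.4%) began within one, and 145 (5.80%, against 9.44%) did both. The remaining 46 held other intronic bases and 38 held none outside the exons of the gene's other transcript types. An intron of a coding transcript can be exon in another of these types, so members of the first class need not hold many intronic bases. Dennd6b-206 keeps an intron of 97 bases whole and holds 17 intronic bases. The median member was 777 nt long with 3 exons and 194 intronic bases, and a median of 155 bases lay in no other transcript of its gene. Apart from splice junctions, such own bases are the sequence by which a read can be tied to this transcript and no other of its gene. In 306 members there were none, and in 967 there were fewer than 100.

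The first set of sequences shows introns kept whole, in transcripts that led their gene by each measure used below. They are read 5′ to 3′ on the gene's strand, with the intron in capitals and 12 exon bases on each side in lower case, and each lies between coding exons of the gene. Positions are those of mm10. The intron of Ncl-202, a transcript of the nucleolar protein nucleolin, is on the minus strand at chr1:86352308-86352521 with its flanks. Those of Prelid1-202, from a mitochondrial lipid transfer protein, at chr13:55324433-55324538 on the plus strand and of Tbl3-201, from a factor of ribosomal RNA processing, at chr17:24705306-24705408 on the minus strand are shorter. The same holds for 2 proteins of the mitochondrial ribosome, Mrps24-201 at chr11:5707544-5707635 on the minus strand and Mrps26-201 at chr2:130564216-130564319 on the plus strand.
Ncl-202: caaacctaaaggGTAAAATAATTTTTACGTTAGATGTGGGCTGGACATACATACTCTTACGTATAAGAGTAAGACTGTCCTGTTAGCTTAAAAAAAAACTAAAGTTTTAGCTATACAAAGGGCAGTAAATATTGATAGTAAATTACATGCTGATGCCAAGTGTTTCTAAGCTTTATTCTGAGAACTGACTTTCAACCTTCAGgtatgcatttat
Prelid1-202: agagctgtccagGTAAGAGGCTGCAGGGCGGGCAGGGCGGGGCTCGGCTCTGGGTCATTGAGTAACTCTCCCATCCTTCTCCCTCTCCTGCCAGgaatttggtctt
Tbl3-201: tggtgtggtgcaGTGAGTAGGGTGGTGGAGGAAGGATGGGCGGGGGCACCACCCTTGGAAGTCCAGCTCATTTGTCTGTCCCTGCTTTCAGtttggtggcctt
Mrps24-201: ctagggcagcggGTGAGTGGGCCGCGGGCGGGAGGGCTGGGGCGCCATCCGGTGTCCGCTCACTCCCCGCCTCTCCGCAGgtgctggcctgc
Mrps26-201: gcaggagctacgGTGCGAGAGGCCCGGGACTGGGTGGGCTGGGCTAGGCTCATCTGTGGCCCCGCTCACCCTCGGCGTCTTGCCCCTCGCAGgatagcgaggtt
All 5 introns begin with GT and end with AG. They measure 190 bases in Ncl-202, 82 in Prelid1-202, 79 in Tbl3-201, 68 in Mrps24-201 and 80 in Mrps26-201.

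The second set shows transcripts of another kind, whose retained part is the stretch of intron just before a 3′ splice site with which the annotated transcript begins. These include several of the most abundant members. Capitals again mark intron and the first 12 bases of the exon follow. Tnni3-202, of the cardiac inhibitory troponin, holds its intronic bases at chr7:4520516-4520567, Myh7-206, of the slow myosin heavy chain, at chr14:54973494-54973528 and Uqcrh-205, of the hinge subunit of respiratory complex III, at chr4:116070013-116070078, all on the minus strand. The plus-strand Cox7b-203, of a subunit of cytochrome c oxidase, holds them at chrX:106019391-106019590.
Tnni3-202: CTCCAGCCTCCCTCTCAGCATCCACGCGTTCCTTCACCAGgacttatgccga
Myh7-206: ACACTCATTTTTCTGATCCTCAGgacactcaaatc
Uqcrh-205: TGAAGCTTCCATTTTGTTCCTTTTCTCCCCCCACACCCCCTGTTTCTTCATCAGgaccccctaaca
Cox7b-203: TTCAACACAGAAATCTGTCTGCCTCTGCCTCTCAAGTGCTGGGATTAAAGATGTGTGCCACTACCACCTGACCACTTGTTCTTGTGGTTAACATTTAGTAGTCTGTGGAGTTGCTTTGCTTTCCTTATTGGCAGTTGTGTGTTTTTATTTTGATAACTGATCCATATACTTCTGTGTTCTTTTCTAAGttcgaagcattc
Only 40 of the 451 bases of Tnni3-202, 23 of the 595 of Myh7-206 and 54 of the 423 of Uqcrh-205 are intronic, and the rest is shared with other transcripts of the gene. Cox7b-203 has 188 of 526.

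Over all members that hold a whole intron, 891 different introns were kept, counted also where another transcript of the gene has them as exon. Their median length was 232 bases and their median GC content 53.1%, and 25.03% were shorter than 100 bases. The 6258 introns found whole only in the other annotated retained-intron transcripts of expressed genes had a median of 286 bases and a GC content of 50.8%, and 17.9% were shorter than 100 bases. GT and AG ended 96.2% of the introns of members and 98.1% of the others. A length that is a multiple of 3, which leaves the reading frame in place, was found in 30.3% and 33.4%. A complete small RNA gene lay within the exons of 47 members, or 1.88%, against 0.911% of all annotated retained-intron transcripts. Of these members 23 held a small nucleolar RNA and 26 a microRNA. Rplp2-205, of an acidic ribosomal protein, holds Snora52 and had a TPM of 27.6 and 20.5. Egfl7-206 holds Mir126a, the microRNA of the vessel lining, and had 16.9 and 14.8. The part of reads from the small RNAs themselves in such levels was not tested.

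Members made up a small part of the RNA. They took 1.24% and 1.19% of the expected counts and 2.12% and 2.13% of the TPM of replicates 1 and 2. The lowest TPM of a member was 1.00 in each heart and the highest 1177 and 1274, with medians of 2.50 and 2.31. The median expected count was 74.5 and 68.0, and 1407 members had at least 50 in both libraries while 34 had under 10 in at least 1. The authors' lower interval bound of TPM was itself at least 1 in both libraries for 1285 members.

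Most members were minor products of their gene. The median IsoPct was 9.20% in replicate 1 and 8.66% in replicate 2. Transcripts of other types past the same minimum had higher medians, 44.4% and 45.0% for protein-coding transcripts, 18.3% and 17.9% for those annotated for nonsense-mediated decay and 16.6% and 16.3% for processed transcripts. By the mean of both hearts, 210 members had an IsoPct under 1%, 613 from 1 to 5%, 496 from 5 to 10%, 745 from 10 to 25%, 345 from 25 to 50% and 93 above that. An IsoPct of at least 50% in both hearts was found for 83 members, or 3.32%, where 37.0% of all transcripts past the minimum reach it. IsoPct divides by length, and many members are short. As a share of the gene's expected counts, which are not divided by length, the median member held 3.53% and 3.23%, and as a share of the gene's TPM in the second transcript table, whose columns are those kallisto writes, 4.98% and 4.58%.

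**Figure D1:**
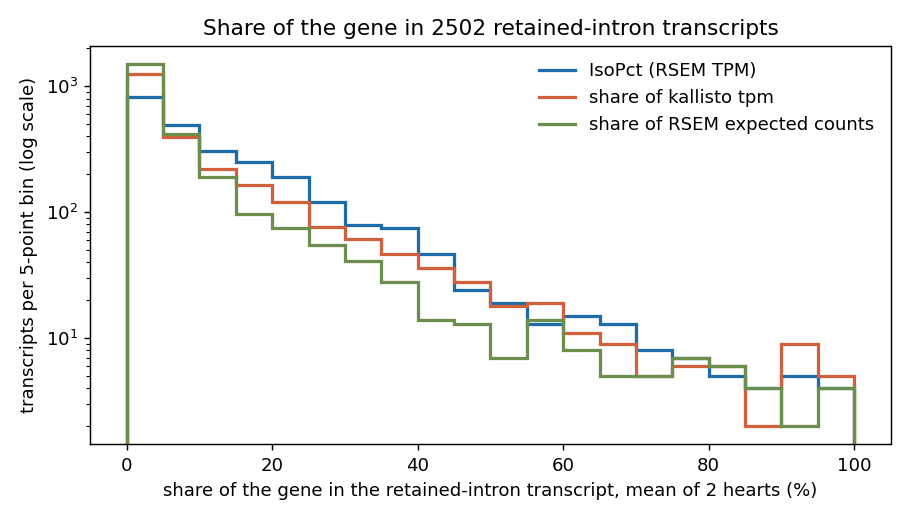
Number of retained-intron transcripts (y axis, log scale) by their percent of the gene (x axis), as the mean of 2 hearts, in bins of 5 points. The lines are IsoPct from RSEM TPM, the share of kallisto tpm and the share of RSEM expected counts. All 3 fall from left to right, and the count share has the most members in the lowest bin.

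The members of a gene were summed to see how far retained-intron transcripts make up its output. A single member was found in 1333 genes, 2 in 305, 3 in 106, 4 in 31 and 5 or more in 21. The sum had a median of 14.9% and 14.7% of the gene's TPM and reached 50% in both hearts in 109 genes. Rnf207, which encodes a heart RING finger protein that acts on potassium channels, had 8 members that summed to 51.3% and 48.3%. The Ryr2 gene also had 8, which summed to 13.7% and 10.4%. Ryr2-210 was the highest of them with a TPM of 8.81 and 7.53, and Ryr2-214 the lowest with 2.36 and 2.27. Kallisto gave 11.6 and 9.63 for Ryr2-210 and 3.00 and 3.00 for Ryr2-214. Hnrnpk and Hnrnpl, RNA-binding proteins that regulate splicing, had 5 each, with sums of 34.6% and 31.7% for Hnrnpk and 22.4% and 14.0% for Hnrnpl.

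A member led its gene when no transcript of the gene had a higher value in either heart. By RSEM TPM 154 members did so, or 6.16%, where 46.7% of all transcripts past the minimum lead. By kallisto tpm 157 led (6.27%, against 41.1%), and by expected count 91 (3.64%, against 47.5%). Of the 154, only 80 also led by kallisto and 63 also by expected count, and 37 led by all 3 measures. The structure classes differed in this. Members that begin in an intron gave 88 of the 154 but 9 of the 37, whereas members that hold a whole intron gave 34 of the 154 and 20 of the 37. Exons of 15 of the 37 (40.5%) overlap another gene on either strand. Over all members, 6.55% overlap another gene on the same strand and 10.6% on the opposite strand. The sources used here do not say whether the authors' counting used strand.

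The nucleolin transcript Ncl-202, 3072 nt long with 2 whole introns, had a TPM of 52.1 and 50.01 and an IsoPct of 76.5% and 79.0%. Kallisto gave 61.8 and 58.8. The most abundant coding transcript, Ncl-201, which is 8202 nt long, stood at 9.25 and 9.12. Both methods and both hearts thus placed the transcript with introns above the coding one. The expected counts behind Ncl-202 were 4846 and 4565, 66.4% and 66.2% of the gene.

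Several genes of the mitochondrion showed the same order. Prelid1-202 had a TPM of 46.4 and 49.6, 90.9% and 91.5% of the gene, and by kallisto 46.5 and 49.97. Mrps26-201 had 30.1 and 35.9, 95.9% and 96.8% of the gene, and by kallisto 37.6 and 44.6. Mrps24-201 had 35.8 and 41.6, 78.0% and 83.7% of the gene, and by kallisto 46.9 and 56.9, 54.3% and 59.9% of the gene. In each of these the kept intron is under 100 bases long. Mrps24-201 has no own bases, so its kept intron also lies in exons of the gene's other transcripts. Mrpl57-202, also of a protein of the mitochondrial ribosome, is a single exon that begins within the intron. It had 30.7 and 27.4, 95.5% and 94.3% of the gene, and by kallisto 46.3 and 38.9.

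Further genes of this group have other roles. Tbl3-201 had an IsoPct of 77.1% and 66.4% at a TPM of 6.70 and 6.06, and Atg4d-203, of a protease of autophagy, 57.6% and 59.2% at 16.1 and 16.7. Yipf3-206, of a Golgi membrane protein, had 48.6% and 43.3% at 14.7 and 15.2. Tap2-202, of the peptide transporter for antigen presentation, had 67.1% and 83.1% at 5.50 and 5.41. Arglu1-204, of a splicing modulator, keeps a long intron and has 1857 bases in no other transcript. Its TPM was 10.6 and 7.0 and its IsoPct 60.5% and 42.7%, and kallisto gave 14.1 and 10.2. Rbm15-202, of an RNA-binding protein, is a single exon of 5967 nt with 52.7% and 52.2% of its gene.

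What the annotation offers beside these members differs between genes. Of the 37, 28 are in genes with an annotated protein-coding transcript, and for 17 of these (60.7%) it is the only one, against 18.8% of the 2473 members in such genes. The most abundant coding transcript was longer than the member in 23 of the 28 (82.1%, against 84.9%). Mrps26-201 is 1057 nt long and its coding partner Mrps26-202 4278 nt, Prelid1-202 is 1204 nt long and Prelid1-201 2644 nt, and Atg4d-203 is 2123 nt long and Atg4d-201 5951 nt. Reads in exons that both share can be assigned to either. The tables do not give the position of reads, so the part of reads over the kept intron and the part of the annotation in these shares was not tested.

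**Figure D2:**
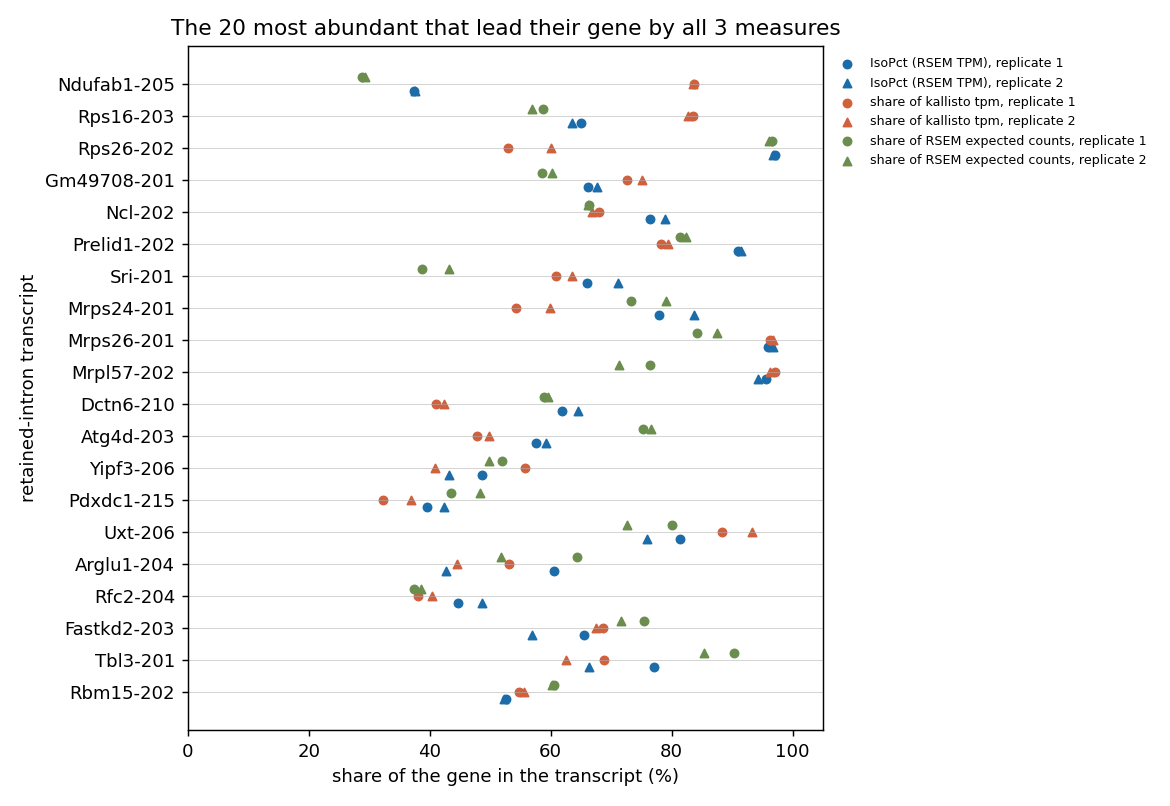
Percent of the gene (x axis) held by the 20 most abundant of the 37 retained-intron transcripts (y axis) that led their gene by all 3 measures. Colours are the measures, circles replicate 1 and triangles replicate 2. The measures lie far apart for Ndufab1-205 and close together for Rbm15-202.

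For several of the most abundant members the 2 tables gave different values. Tnni3-202 had the highest TPM of all, 1177 and 1274, with 46.0% and 45.0% of its gene. It led its gene by none of the 3 measures, and kallisto listed it at 0 in both hearts. For Tnni3-204, another retained-intron transcript of the same gene, the order was turned around, with an RSEM TPM of 15.1 and 13.6 and a kallisto tpm of 1952 and 2056. Kallisto thus also placed much of the gene, 47.5% in replicate 1, in a retained-intron transcript, but in another one.

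Myh7-206 led its gene in both tables, with a TPM of 608 and 709 and an IsoPct of 81.2% and 82.5%, and kallisto gave 1549 and 1739. By expected counts it held 26.1% and 27.9% of the gene. The 6135 nt coding transcript Myh7-201 had more reads, 26502 and 27853 against 9444 and 10800, and a TPM of 140.2 and 150.3. Per length Myh7-206 was thus above the coding transcript and by reads below it, and a gene on the opposite strand overlaps it.

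The 12 members with the highest mean TPM include the following transcripts of the respiratory chain and ATP synthase. Atp5j-208, of a coupling subunit of ATP synthase, had 607 and 620 with 92.5% and 92.6% of its gene, and kallisto gave 0 and 122.0. Uqcrh-205 had 489 and 507, and Ndufc1-203, of a complex I subunit, 329 and 337, both listed at 0 by kallisto in both hearts. Cox6b1-202 had 685 and 568, where kallisto gave 2.61 and 2.23. Cox7b-203 went the other way, with 331 and 318 by RSEM and 1264 and 1269 by kallisto. Ndufab1-205, of the mitochondrial acyl carrier protein, led by all 3 measures, with 209.8 and 218.4 by RSEM and 433.6 and 454.3 by kallisto.

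Ribosomal proteins of the cytosol gave a like range. Rps26-202 had 154.6 and 156.0 and an IsoPct of 97.1% and 96.8%, and by kallisto 202.7 and 227.4. Its share of the gene by kallisto was lower, 53.0% and 60.1%. The coding transcript Rps26-201 had 4.17 and 4.84 by RSEM and 179.3 and 150.6 by kallisto. Rps16-203 had 223.4 and 196.1 and by kallisto 479.2 and 438.0. Rps18-210 had 197.2 and 195.2 and was listed at 0 by kallisto in both hearts. The largest excess of kallisto among members with at least 50 expected counts was in Cycs-201, of cytochrome c, with 4.65 and 5.47 by RSEM against 763 and 836. Ak1-204, of adenylate kinase, had 3.48 and 2.97 against 169.7 and 173.0, and Atp5k-203, of an ATP synthase subunit, 7.26 and 7.57 against 304.0 and 315.8. Many ribosomal protein and respiratory genes have processed copies elsewhere in the genome, and how the reads of such copies were shared is uncertain.

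Across all members, 1700 (67.9%) had a kallisto tpm of at least 1 in both hearts, where 80.2% of all transcripts past the minimum do. Kallisto listed 247 members at 0 in both hearts, 9.87% against 7.24%. The mean level by kallisto was within 2-fold of RSEM for 1424 members, over 2-fold higher for 329 and over 2-fold lower for 749, of which 368 were over 10-fold lower. Members were chosen by RSEM TPM, which favours values that are lower by kallisto, and other transcripts were not counted in this way. The median log2 ratio of kallisto over RSEM was 0.05 for members and 0.20 for all transcripts past the minimum. The median absolute ratio was 0.75 and 0.43. Spearman's rho between the methods was 0.33 over the 2502 members, which share libraries and annotation, and 0.75 over the 17912 protein-coding transcripts. It was 0.31 over processed transcripts, of which 60.6% reached a kallisto tpm of 1 in both hearts and 19.2% were at 0 in both. For transcripts annotated for nonsense-mediated decay these values were 0.55, 74.2% and 6.40%. Low agreement is thus not particular to retained-intron transcripts. Within a method the 2 hearts were closer to each other, with a rho of 0.84 for RSEM TPM and 0.89 for kallisto tpm.

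**Figure D3:**
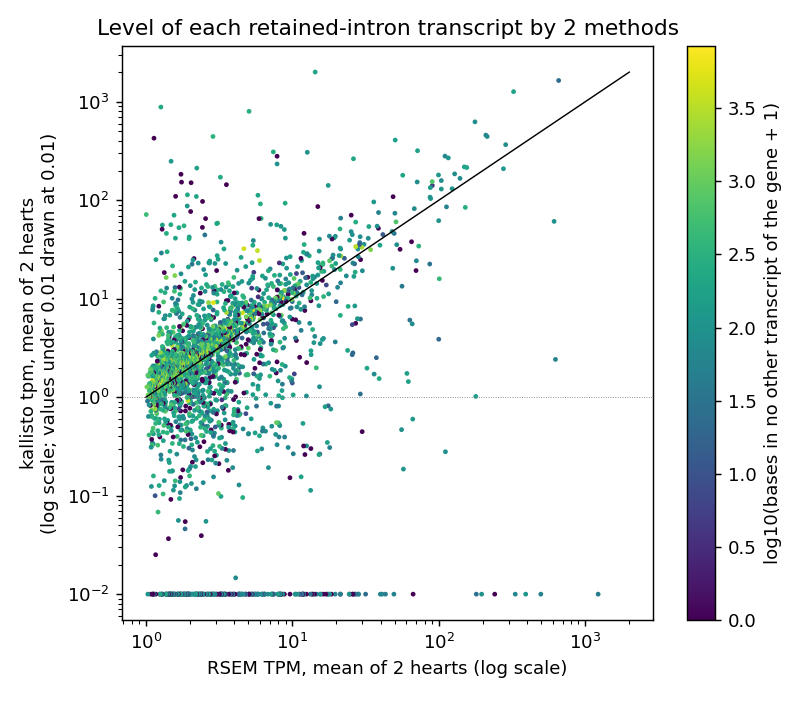
Mean RSEM TPM (x axis) against mean kallisto tpm (y axis) of each of the 2502 members over 2 hearts, both on log scales, with values under 0.01 drawn at 0.01. The colour gives the bases found in no other transcript of the gene and the line marks equal values. Many members lie along the line, and a row at the bottom reaches to the member with the highest RSEM TPM.

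Agreement between the tables went with the sequence that is a member's own. Among the 306 members without own bases, 54.6% had a kallisto tpm of at least 1 in both hearts, and among the 254 with 1 to 50 own bases 47.6% did. The share was 75.7% of 573 members with more than 200 and up to 500 own bases, 88.4% of 198 with more than 500 and up to 1000, and 96.1% of 282 with more. None of the members with more than 500 own bases was listed at 0 in both hearts, against 18.6% of those without own bases. The members with more than 1000 own bases had a low median IsoPct, 3.88%, and those with 1 to 50 a median of 17.8%.

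Length moved with agreement too. Of the 35 members up to 300 nt long 1 had a kallisto tpm of at least 1 in both hearts, of the 113 above 300 and up to 400 nt 17, and of the 534 above 2000 nt 459. Protein-coding transcripts showed the same course, from 1.85% up to 300 nt to 91.6% above 2000 nt. The length by which each table divides differs most for short transcripts. For members above 300 and up to 400 nt the median effective length in replicate 1 was 265 nt in the RSEM table and 87.3 nt in the kallisto table. The part of own bases, of length and of effective length in the disagreement was not tested, and these are not independent of each other.

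**Figure D4:**
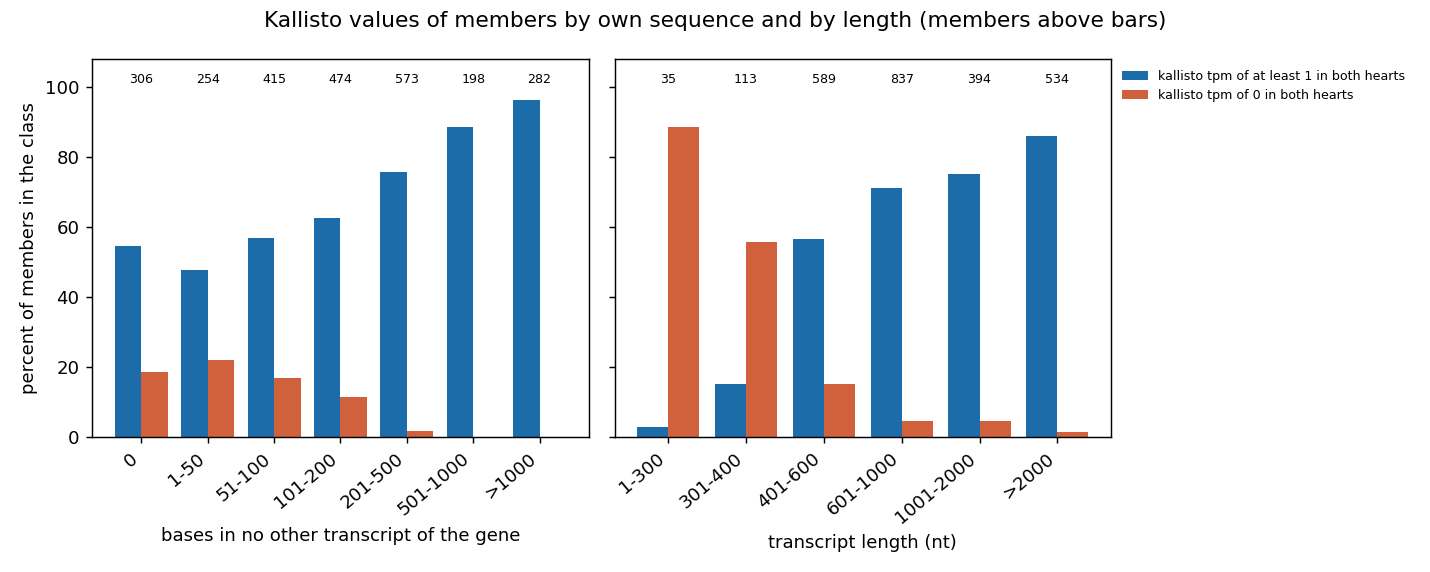
Percent of members (y axis) with a kallisto tpm of at least 1 in both hearts (blue) and of 0 in both hearts (orange), by the bases found in no other transcript of the gene (left) and by length (right). Numbers above the bars are members. Blue bars rise to 96.1% on the left, and the orange bar is highest, 88.6%, for members up to 300 nt.

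The tables were also compared by the sum over all retained-intron transcripts of a gene. The median sum over the 1796 genes was 19.4% by RSEM and 15.3% by kallisto, with a Spearman's rho of 0.64 and a Pearson's r of 0.69 across genes, which are not replicates. For the shares of single members the values were 0.49 and 0.63. A sum of at least 50% was found in 175 genes by RSEM and in 165 by kallisto. These lists share 103 genes, 58.9% of the RSEM list and 62.4% of the kallisto list. The 1796 genes were chosen by RSEM TPM, which favours a higher sum by RSEM. Genes whose retained-intron transcripts reach the minimum by kallisto only are left out.

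Genes of splicing often had a member. Among SR proteins, their kinases and partners, which bind exons and recruit the spliceosome, 20 of 24 expressed genes with an annotated retained-intron transcript had a member, against 25.3% of all 7091 such genes. The count also depends on how abundant the genes are, as given below. The 34 members of the SR list had a median IsoPct of 10.5% and 32 had a kallisto tpm of at least 1 in both hearts. Rsrp1-204, with 13 own bases in 3051 nt, had a TPM of 30.9 and 26.5 with 49.8% and 38.8% of its gene. Srsf2-203 spans 3 whole introns and had 11.8 and 10.2, by kallisto 15.3 and 13.05. Srsf5-212, which has no own bases, had 13.5 and 12, by kallisto 17.2 and 15.8.

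For hnRNPs and other RNA-binding splicing regulators the count was 23 of 30 genes with 52 members, a median IsoPct of 4.52% and no member that led by RSEM TPM. Spliceosome core genes gave 12 of 29 genes and 20 members at a median of 5.74%, among them Ddx39b-204, of an RNA helicase, with 11.2 and 10.0. Snrnp70-216, of the U1 particle, had 6.32 and 4.73. Genes of nonsense-mediated decay and the exon junction gave 4 of 11 genes and 6 members, and 1 of these led by RSEM TPM. This was Rbm8a-204, of a core protein of the junction complex, with 14.1 and 9.71 and an IsoPct of 62.5% and 54.2%. The host genes of small nucleolar RNAs, Gas5 and Snhg5, held the 6 members of that list. Gas5-218 keeps 10 whole introns and had 2.79 and 1.41, and by kallisto 3.80 and 2.02. It holds Snord78 and further small RNA genes, and the part of their reads in this level was not tested.

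Heart muscle genes also had members in most cases, at lower shares of the gene. Of sarcomere and Z-disc genes 18 of 20 had a member, 29 in all with a median IsoPct of 0.81%, and 2 led their gene by RSEM TPM, Myh7-206 and Cryab-204. Neither led by expected count, and Cryab-204 did not lead by kallisto. The crystallin chaperone transcript Cryab-204 had 273.2 and 279.8. Tnnt2-210, of cardiac troponin T, had 161.2 and 142.4, which was 5.34% and 4.49% of its gene. In calcium handling and ion channels 13 of 17 genes had 27 members at a median of 2.35%. Trdn-204, of triadin at the calcium release unit, is a single exon of which 1458 bases are its own, and had 34.1 and 34.4 by RSEM and 31.8 and 31.1 by kallisto.

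Oxidative phosphorylation and mitochondria gave 43 of 52 genes, 82 members, a median IsoPct of 0.49% and 3 members that led by RSEM TPM. Fatty acid and glucose metabolism gave 22 of 33 genes and 41 members at 0.735%. Hadhb-208, of the mitochondrial trifunctional protein, had 157.3 and 196.1 by RSEM and 604.2 and 646.5 by kallisto. Cytosolic ribosomal proteins and translation factors gave 49 of 80 genes, 81 members, a median of 1.30% and 6 members that led by RSEM TPM, of which 2, Rps16-203 and Rps26-202, led by all 3 measures. A minimum on TPM admits a smaller share of a gene the more abundant the gene is. An abundant gene is thus also more likely to have a member, and the counts against 25.3% of all genes are not at equal level. The median TPM of the expressed genes with such an annotation was 628 for the sarcomere list, 426 for oxidative phosphorylation, 258.9 for ribosomal proteins and 28.0 for SR proteins, against 12.3 over all 7091 genes. Spliceosome core genes, with a median of 30.8, had a member in 12 of 29.

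The remaining lists gave between 10 and 24 members each. Cardiac transcription factors had 7 of 14 genes and 10 members at a median IsoPct of 2.41%, with Mef2a-212 at 1.96 and 1.69 and Gata6-202 at 1.58 and 1.90. Cell cycle genes had 11 of 27 genes and 16 members at 15.3%. Cdk4-209, of a cyclin-dependent kinase, led its gene by RSEM TPM with 29.9 and 27.9 and 37.9% and 38.7%. Extracellular matrix genes had 13 of 20 genes and 19 members at 1.37%. Chromatin and methylation enzymes had 14 of 33 genes and 24 members at 7.43%, among them Ogt-204, of the enzyme that adds N-acetylglucosamine to proteins, with 7.99 and 6.15. Over all members the median of the mean IsoPct was 9.21%.

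The spread between the 2 hearts was measured first. The median absolute log2 ratio was 0.28 for members, 0.18 for all transcripts past the minimum and 0.16 for protein-coding ones, and Spearman's rho of TPM was 0.84, 0.95 and 0.96. Members were thus further apart between the hearts than these, by values that have no test. Processed transcripts had a like ratio of 0.28 with a rho of 0.88, and those annotated for nonsense-mediated decay 0.26 with 0.89. At a TPM minimum of 5 the ratio for members was 0.18. IsoPct differed by no more than 5 points in 2102 members (84.0%) and by over 10 points in 107, where 823 members have a mean IsoPct under 5% and could hardly differ by more. With 1 library per animal and 2 animals there is no test of a difference between them. At least a 2-fold ratio of TPM, after adding 0.1 to each, was used as a measure of size. By it 41 members were higher in replicate 2 (1.64%, against 1.53% of all transcripts past the minimum) and 82 lower (3.28%, against 1.93%), 123 in all (4.92%, against 3.46%). The authors' TPM intervals of the 2 libraries did not overlap for 109 members, 4.36% against 7.17%. Both criteria together were met by 15 members, 0.600% against 0.521%, a share near the background.

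Of these 15, 5 were higher and 10 lower in replicate 2. Myl4-204, of the atrial light chain of myosin, had a TPM of 40.7 and 95.5, and kallisto gave 50.4 and 113.9. Its gene moved the same way, from 103.7 to 197.5, a log2 ratio of 0.93 that is just under 2-fold. Hba-a1-202 had 236.4 and 548.4, at an IsoPct of 14.1% and 14.2%, and kallisto listed it at 0 in both hearts. It was the 1 member of the 15 whose gene moved 2-fold in the same direction. The blood markers Hba-a1, Hbb-bs and Alas2 were all higher in replicate 2, with Alas2 at 28.0 and 68.4, and their part in this value was not tested. Cdh2-203, of N-cadherin at the junctions between muscle cells, has 3111 own bases and had 4.67 and 2.19, with 5.49 and 2.65 by kallisto. Rpl3-204 had 2.52 and 1.08 and by kallisto 4.20 and 1.78, while its gene differed by a log2 ratio of -0.01. By kallisto 9 of the 15 were 2-fold apart in the same direction, and 2, Hba-a1-202 and Txnip-203, were at 0 in both hearts.

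The widest ratios among members with at least 50 expected counts in both hearts included those of Supt5-203, Col3a1-207 and Idh3a-203. The authors' TPM intervals of both libraries overlapped for each of these. They have 99, 14 and 72 own bases, while Rpl3-204, also among the widest, has 403. Supt5-203, of a transcription elongation factor, had 1.19 and 5.03, and kallisto gave 0 and 5.25. Col3a1-207, of a fibrillar collagen, has 14 own bases and had 9.34 and 36.0, and kallisto gave 0 and 51.5. Idh3a-203, of a citric acid cycle enzyme, went from 11.8 to 4.73, and kallisto listed it at 0 in both hearts. The log2 ratio of the gene was 0.04 for Supt5-203, 0.01 for Col3a1-207 and 0.11 for Idh3a-203.

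Small shifts between the hearts pointed mostly one way. The median log2 ratio of replicate 2 over replicate 1 was -0.11 over the members and 0.01 over protein-coding transcripts, and the genes of the members had a median of -0.01. It was -0.03 over transcripts annotated for nonsense-mediated decay and -0.02 over processed transcripts. In replicate 2, 1508 members (60.3%) were lower and 984 higher by RSEM TPM. Over all transcripts past the minimum 49.9% were lower. The share was 47.7% for protein-coding transcripts, 53.6% for those annotated for nonsense-mediated decay and 52.0% for processed transcripts. The shift was larger where a member has more sequence of its own. The median was -0.05 for members without own bases, -0.14 for those above 200 and up to 500, -0.15 above 500 and up to 1000, and -0.20 above 1000. In this last class 222 of 282 members were lower in replicate 2, while the gene was lower for 142. Kallisto gave a median of -0.21 for the 271 of them that it put at 1 or more in both hearts, and 221 of those were lower. Of all 19415 transcripts past the minimum that kallisto put at 1 or more in both, 53.3% were lower.

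**Figure D5:**
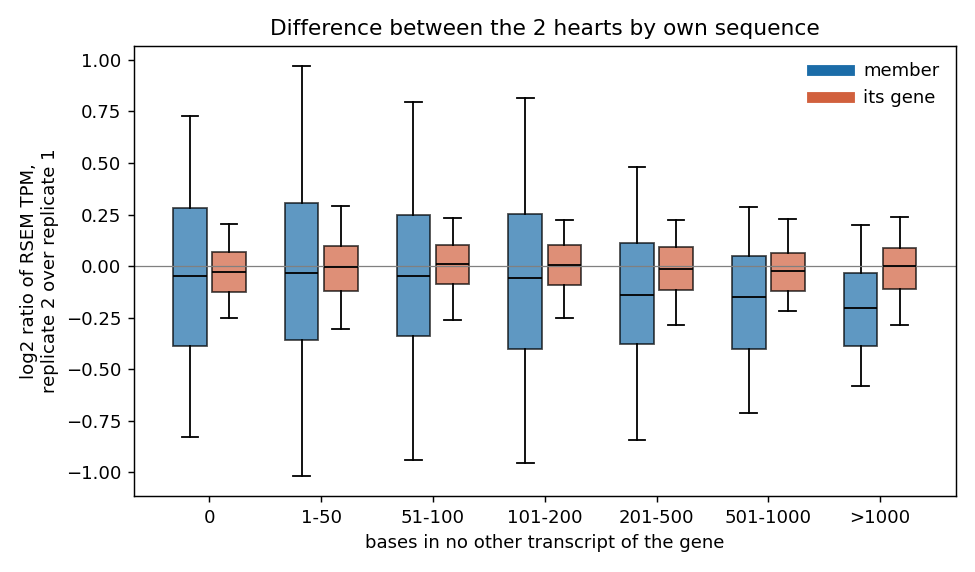
Log2 ratio of RSEM TPM of replicate 2 over replicate 1 (y axis) for members (blue) and their genes (orange), by the bases of the member found in no other transcript of the gene (x axis). Boxes span the quartiles with the median as a line, and whiskers the 5th to 95th percentile over members. The median of members falls to -0.20 in the class above 1000 bases, and that of genes stays near 0.

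Single members with more than 1000 own bases, picked after their values were seen, went either way. Tnnt2-208, with 2777 own bases, had 33.1 and 26.6 by RSEM and 38.0 and 28.7 by kallisto. Ttn-207, of titin, had 11.8 and 8.51 and by kallisto 12.9 and 9.85. Myom1-205, of the M-band protein myomesin, had 11.2 and 8.67 and by kallisto 11.2 and 8.50. Gata6-202, with 2394 own bases, was higher in replicate 2 in both tables, at 1.58 and 1.90 and by kallisto 2.04 and 2.38. So was Gm43305-201, with 4309 own bases, at 4.02 and 5.31 and by kallisto 29.8 and 34.7, and Trdn-204 was nearly level. By structure, members with a whole intron had a median log2 ratio of -0.16, those that end in an intron -0.08 and those that begin in one -0.06. Over all members 60.3% were lower in replicate 2 and 51.4% had a gene that was lower. In the SR protein list 28 of 34 members were lower, and 24 of the 34 had a lower gene. The sarcomere list with 18 of 29 members lower (62.1%) and the oxidative phosphorylation list with 51 of 82 (62.2%) were near the share over all members, and 8 of 29 and 1 of 82 had a lower gene. In the extracellular matrix list 8 of 19 members were lower and in the cell cycle list 8 of 16, and 3 of 19 and 9 of 16 had a lower gene. Of the members of these lists that kallisto put at 1 or more in both hearts, it gave 4 of 12 and 7 of 9 as lower. The 2 libraries differ in brown fat and blood markers, as given above, and the part of this, of unspliced RNA or of library preparation in the shift was not tested.

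The TPM minimum cuts through a dense range of values. Just inside it lay Rps4x-202 with 1.00 and 1.01, Far1-204 with 1.00 and 1.03 and Fuom-213 with 1.00 and 1.05. Kallisto gave 75.6 and 67.6 for Rps4x-202, 1.30 and 1.25 for Far1-204 and 1.22 and 0.61 for Fuom-213. Just outside lay Epn1-206 with 0.99 and 3.77, Dnm1l-206 with 2.32 and 0.99 and Gnao1-202 with 0.99 and 2.02. By kallisto 3214 retained-intron transcripts reached 1 in both hearts, and 1700 of them are members, which is 52.9% of that list and 67.9% of the members.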

How the data were processed

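Per the file headers and the text deposited with them, the authors made all tables on mm10 with GENCODE M21. The first transcript table and the gene table hold the authors' expected count, TPM and, per transcript, IsoPct in percent, with the deposited interval bounds of TPM treated as a score because the interval's level is not given. The second transcript table holds the deposited estimated counts and tpm. No source used here names the aligner, counting tools, versions or strand setting. RSEM and kallisto are named from the column headers, and effective length in the first table is length less 99. Tables were joined by transcript identifier, all 141767 of which matched the annotation, and structures and sequences were read from the GENCODE M21 annotation and transcripts (Python 3.11.15, pandas 2.3.3, numpy 2.4.6, scipy 1.17.1). Whole introns are those of protein-coding transcripts inside 1 exon of the member, also where another transcript has them as exon. In genes without a protein-coding transcript, introns of the other transcripts not typed as retained intron were used. Ratios between hearts use a pseudocount of 0.1. No count model was fitted, since there is 1 group. Structure classes and own bases were tested on a constructed gene, and the TPM minimum with the 2-fold ratio on simulated TPM. Joins and shares were not tested in this way.

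Named transcripts are the highest by TPM, by IsoPct, in each gene list, in either direction between the tables and between the hearts (with at least 50 expected counts), those at the TPM minimum, and those that lead by all 3 measures or met both criteria between the hearts. Others (Ryr2-210, Ryr2-214, Rplp2-205, Egfl7-206, Tnnt2-208, Ttn-207, Myom1-205) were picked after their values were seen. The members and lists were chosen with earlier results of these data known. The labels call the samples biological replicates under 1 donor record. Alternatives for the TPM minimum, count minimum, table, posterior mean and pseudocount are in the closing section. Some transcripts that the naming rule selects are not reported here.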

Additional observations from a re-analysis of the deposited data

How the results depend on the processing

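The TPM minimum set most values. At minimums of 0.5, 2 and 5 there were 4798, 1271 and 508 members, with a median IsoPct of 5.39%, 15.8% and 23.1% and 343, 33 and 8 members 2-fold apart between the hearts. A kallisto tpm of at least 1 in both was found for 898 at a minimum of 2 and 365 at 5, and at 5 there were 98 leading members and a median absolute log2 ratio between hearts of 0.18, against 0.28 in the report. With only 1 library in the rule there were 3019 to 3503 members, a median IsoPct of 7.55% to 8.09%, 207 to 234 leading members and 2099 to 2512 with a kallisto tpm of at least 1. Kallisto tpm in place of RSEM TPM gave 241 members 2-fold apart, the posterior mean TPM a median IsoPct of 8.18%, and a pseudocount of 1 left 47 members 2-fold apart. Alternatives chosen after seeing the data were the share of expected counts, with a median of 3.38% and 91 leading members, and members with at least 200 own bases, of which there were 1055 with a median IsoPct of 5.28%, 29 leading, 882 with a kallisto tpm of at least 1 in both and 19 that were 2-fold apart. Of 50 alternative values 24 stayed within 1.5 times the reported count or ratio, or for IsoPct within the SD of 0.378 between the libraries' medians, and 26 did not; the cause was not tested. No paired analysis was possible because there is 1 group. Depth limits the members with few counts, and a level shared by transcripts without own bases rests on the model of each table.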
